A study of Rattus norvegicus with 12 samples.

Results

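The calcium handling genes of the heart muscle cell were followed here across 4 groups of neonatal rat ventricular myocytes (NRVMs): Atp2a2, Ryr2, Pln, Sln, Casq2, Slc8a1, Cacna1c, Itpr2, Srl and Camk2d. They were taken by gene symbol from a table of 18483 genes, which held 1 row for each of the 10. RNA was sequenced from NRVMs of Sprague-Dawley rats, with 3 libraries in each of 4 groups. Every group was transfected, either with a control siRNA (siNeg) or with an siRNA against Slc39a2 (siSlc39a2), a member of the SLC39 family of zinc importers. One group of each kind was then given phenylephrine (PE), the α1-adrenergic agonist that makes these cells hypertrophic, for 36 h from 12 h after transfection by the sample labels (the study's methods give a longer treatment), and the other was left without it. The groups are thus siNeg, siNeg PE, siSlc39a2 and siSlc39a2 PE, all kept in medium with insulin, transferrin and selenium. The study asked what loss of Slc39a2 does to hypertrophic growth and gene expression. The model has limits: 1 siRNA carried the knockdown in the sequenced cells, the cells came from neonatal ventricles, and non-myocytes are not fully removed from such cultures.

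In each heartbeat calcium enters through the L-type channel, opens ryanodine receptors on the sarcoplasmic reticulum and is released onto the myofilaments. It is then pumped back into the reticulum by SERCA2 or carried out of the cell by the sodium-calcium exchanger. Phospholamban and sarcolipin restrain the pump, calsequestrin holds calcium inside the reticulum, and CaM kinase II reads the calcium signal and phosphorylates several of these proteins.

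The libraries held between 24065539 and 28603854 counts. Slc39a2 itself was counted 50, 50 and 59 times in siNeg, 21, 11 and 2 times in siSlc39a2, 95, 198 and 182 times in siNeg PE and 31, 25 and 38 times in siSlc39a2 PE. The knockdown libraries lay below their controls in both cases, by -2.35 on the log2 scale in cells not given PE and by -2.33 in those given it. Summed over 8 cardiomyocyte markers, levels ran from 30442 to 32494 CPM (counts scaled to a common library size) in siNeg and from 20673 to 21416 in siSlc39a2, and under PE from 24027 to 25055 and from 18871 to 19628. No cardiomyocyte marker was at 0 in any library. Summed over 8 fibroblast markers they ran from 13859 to 18345, 5338 to 5643, 9171 to 11754 and 3582 to 4949 CPM in the same order, none of these markers being at 0. Smooth muscle markers summed to 752 to 1984 CPM over the libraries, macrophage markers to 30.5 to 120.3 CPM and endothelial markers to 13.7 to 21.4 CPM, with Emcn at 0 in some. These sums lean on single genes. Col1a1 stood at 8990 to 11915 CPM in siNeg and at 3296 to 3442 in siSlc39a2. Myh6 stood at 13729 to 17391 CPM in siNeg and at 6919 to 7921 in siSlc39a2. Without PE the knockdown lowered 6 of 8 markers in each list and raised 1 fibroblast marker, Tcf21 (edgeR adjusted p below 0.05). Of all genes, 26.4% fell and 22.8% rose there. In bulk RNA, fewer cells of a type and less RNA per cell cannot be told apart.

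One technical property moved with the groups. For each gene, CPM over the deposited FPKM (a level scaled to transcript length and library size) gives the transcript length behind its FPKM, and the level of the longest 10% of genes (1397 genes of at least 5.77 kb) differed between libraries. Its median log2 CPM, centred per gene, was -0.40 in siNeg replicate 1, -0.06 and -0.05 in the other siNeg libraries, and 0.36 in siSlc39a2 PE replicate 3. The shortest 10% (1.00 kb or less) ran the opposite way, from 0.34 to -0.27. Among the calcium genes, Cacna1c and Itpr2 had lengths near 10 kb, Ryr2 between 7.57 and 10.02 kb depending on the library, Slc8a1 6.3 kb, Atp2a2 4.2 kb and Pln 2.2 kb. Calls among the 10 genes that change when this trend is fitted out, or without siNeg replicate 1, are given with both values.

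**Figure D1:**
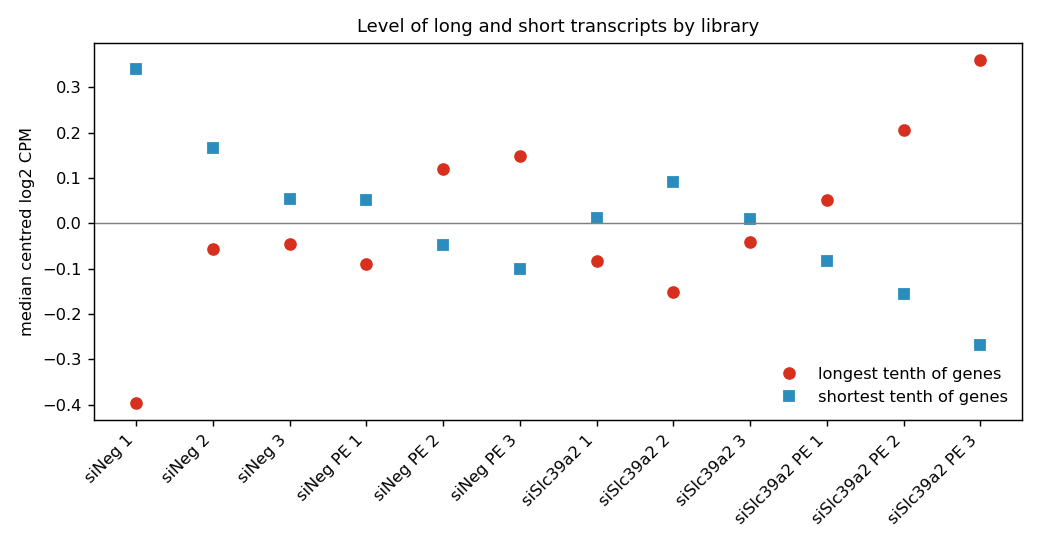
Median centred log2 CPM (y axis) of the longest 10% of genes (circles) and of the shortest 10% (squares) in each of the 12 libraries (x axis). Long transcripts are lowest in siNeg replicate 1 (-0.40) and highest in siSlc39a2 PE replicate 3 (0.36), and short transcripts run the other way.

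All 10 genes passed the filter on low counts. With siSlc39a2 and no PE, 1 of the 10 rose and 3 fell at an adjusted p below 0.05 (edgeR's quasi-likelihood test, Benjamini-Hochberg adjustment over 13967 genes), against 22.8% of all genes higher and 26.4% lower. With siSlc39a2 under PE, 1 rose and 4 fell, against 29.2% and 28.1%. PE in siNeg cells gave 2 higher and 1 lower, against 24% and 25.7%, and PE in siSlc39a2 cells gave 3 higher and 2 lower, against 30.7% and 29.3%. Counts this close to the background say nothing particular of the set. Its median log2 fold change was -0.01 for the knockdown without PE, -0.03 for the knockdown with PE, 0.15 for PE in siNeg and 0.22 for PE in siSlc39a2, beside -0.02, 0.01, -0.01 and 0.01 over all genes tested. Each group serves in more than one of these comparisons, so they share libraries and are not independent of each other. The genes did not move as a block: Atp2a2 and Slc8a1, whose products both take calcium out of the cytosol, went in opposite directions with the knockdown under PE. None of the 10 changed by over 2-fold with the knockdown without PE or with PE in siNeg cells, as 9.78% and 6.6% of all genes did, or with the knockdown under PE, as 11.6% did.

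**Figure D2:**
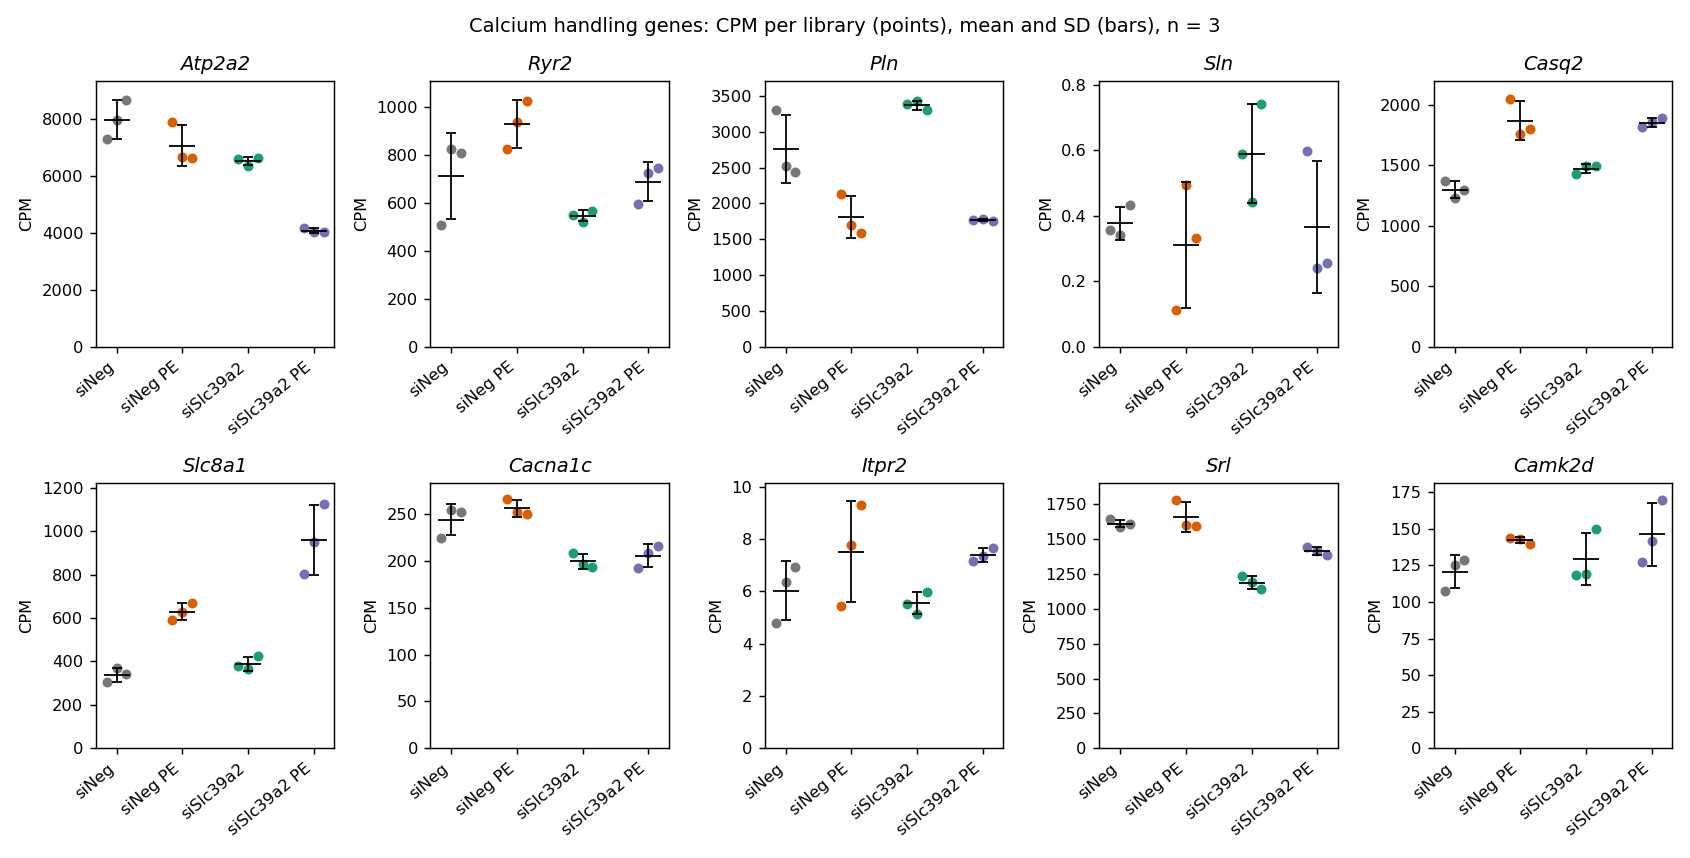
CPM (y axis, from 0) of the 10 calcium handling genes in each library, by group (x axis); points are libraries, bars the mean and SD of 3. Atp2a2 is lowest in siSlc39a2 PE, at 4009 to 4175 CPM, where Slc8a1 is highest, at 804 to 1123 CPM.

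**Figure D3:**
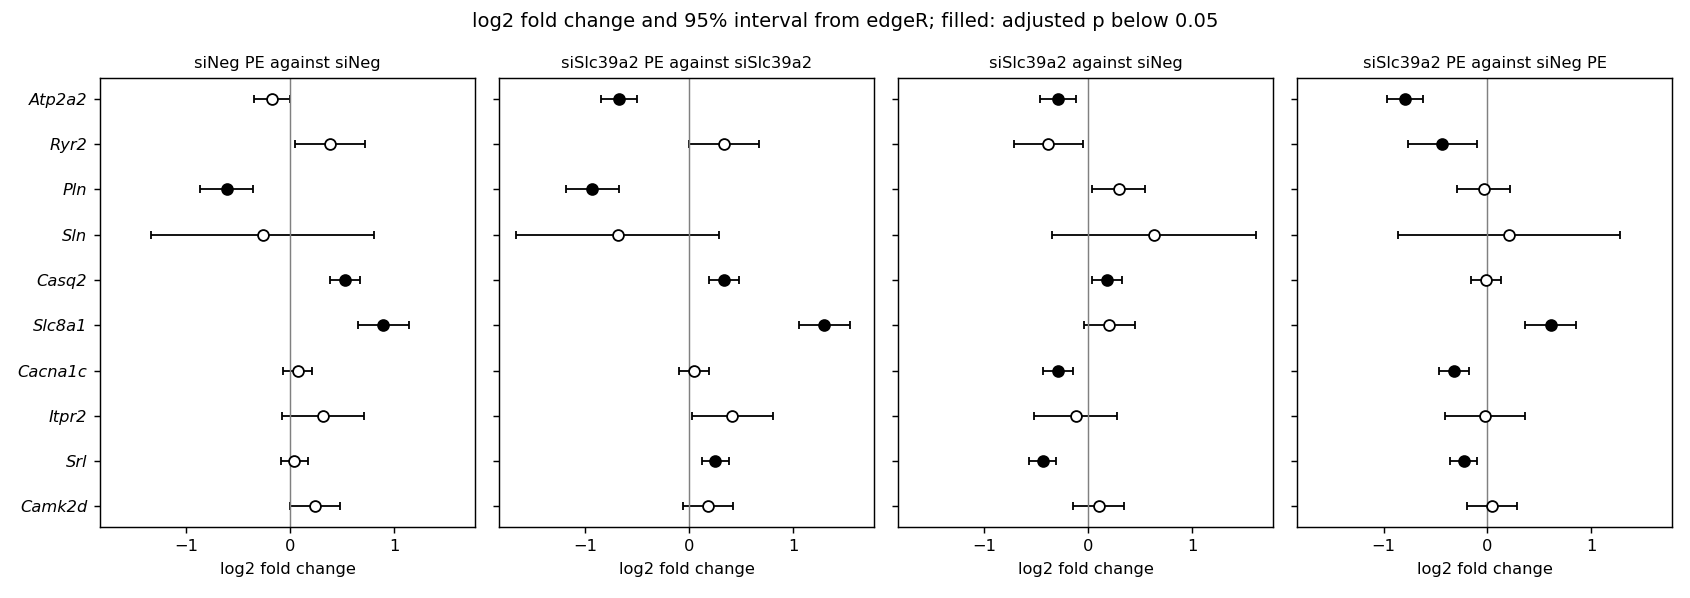
Log2 fold change (x axis) of each gene in 4 comparisons, with 95% intervals; filled circles have an adjusted p below 0.05. Slc8a1 rises and Pln falls with PE under either siRNA, while the knockdown lowers Atp2a2, Srl and Cacna1c with and without PE.

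Levels spanned more than 3 orders of magnitude. Per transcript length, in mean FPKM, the siNeg order was Atp2a2 at 1798, Pln at 1203, Casq2 at 519, Srl at 406, Ryr2 at 73.7, Slc8a1 at 51.1, Camk2d at 32.4, Cacna1c at 23.0, Sln at 1.72 and Itpr2 at 0.563. No neighbours in that order overlapped between libraries. In siNeg PE, Pln (834) and Casq2 (789) overlapped, as did Slc8a1 (100.4) and Ryr2 (99.8), and Sln and Itpr2. In siSlc39a2 the order opened with Pln at 1629 ± 7.20 and Atp2a2 at 1622 ± 56.8 (SD, n = 3), which overlapped, and Ryr2 (68.3) overlapped Slc8a1 (64.5). In siSlc39a2 PE, no neighbours overlapped, and Atp2a2 at 974 ± 16.2 FPKM lay close above Pln at 821 ± 8.16 and Casq2 at 787 ± 20.4. The most abundant transcript of the set thus went from well above the next in siNeg to within a short distance of it in both knockdown groups.

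RefSeq (GRCr8) gave a promoter, from 250 bases before to 50 bases after the gene's start, for 8 of the 10 genes, and none was used for Sln and Srl. Those of 4 are shown: those of Atp2a2 and Slc8a1, which moved most with the knockdown under PE, and those of Pln and Casq2, which held the only matches to the motifs searched on both strands. The motifs were the GATA motif AGATAA, the E-box CAGCTG, the CArG box, the MEF2 box and the interferon-stimulated element GAAANNGAAA. Capitals mark a match, and a match is a description and not a shown binding site.
Atp2a2, chr12:39733269-39733568, + strand: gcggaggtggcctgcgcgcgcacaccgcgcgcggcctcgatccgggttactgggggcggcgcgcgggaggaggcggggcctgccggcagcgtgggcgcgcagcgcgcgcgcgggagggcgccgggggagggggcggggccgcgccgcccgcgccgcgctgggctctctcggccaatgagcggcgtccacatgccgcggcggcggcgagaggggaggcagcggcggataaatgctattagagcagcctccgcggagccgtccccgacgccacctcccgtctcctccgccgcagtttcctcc
Slc8a1, chr6:19023309-19023608, + strand: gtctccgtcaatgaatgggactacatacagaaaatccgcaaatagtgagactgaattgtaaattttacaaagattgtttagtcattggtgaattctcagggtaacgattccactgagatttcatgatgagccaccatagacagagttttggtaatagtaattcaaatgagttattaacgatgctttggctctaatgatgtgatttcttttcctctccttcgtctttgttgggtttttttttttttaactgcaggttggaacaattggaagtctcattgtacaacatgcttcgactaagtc
Pln, chr20:33172244-33172543, + strand: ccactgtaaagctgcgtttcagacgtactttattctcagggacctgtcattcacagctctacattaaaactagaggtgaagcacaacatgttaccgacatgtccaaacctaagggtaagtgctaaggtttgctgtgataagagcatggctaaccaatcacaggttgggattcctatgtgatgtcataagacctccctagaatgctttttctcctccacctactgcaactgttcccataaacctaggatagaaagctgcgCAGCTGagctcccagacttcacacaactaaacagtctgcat
Casq2, chr2:192214306-192214605, + strand: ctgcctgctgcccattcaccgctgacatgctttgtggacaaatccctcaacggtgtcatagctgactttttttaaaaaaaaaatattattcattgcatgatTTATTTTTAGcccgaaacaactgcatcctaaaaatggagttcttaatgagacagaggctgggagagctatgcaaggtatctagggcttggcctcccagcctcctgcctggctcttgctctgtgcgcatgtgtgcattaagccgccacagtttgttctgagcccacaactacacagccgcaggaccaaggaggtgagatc
The Casq2 promoter held a MEF2 box, TTATTTTTAG, at bases -149 to -140 from the start, a motif present in 3.29% of 33469 rat promoters. The Pln promoter held an E-box at bases 9 to 14 after the start, a motif present in 15.1% of them. GC content differed between the 8 windows. It was 79.0% for Atp2a2, 75.0% for Itpr2, 74.7% for Camk2d and 73.0% for Ryr2. It was 51.7% for Cacna1c, 47.7% for Casq2, 45% for Pln and 36.3% for Slc8a1. The Slc8a1 window may not be that gene's promoter. At its annotated start lies a run of t bases and then aactgcag, a sequence like the end of an intron. Pln and Casq2, close in base composition, responded to PE in opposite directions.

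Atp2a2 encodes SERCA2, the pump that refills the sarcoplasmic reticulum. Its levels were 7299.5, 7959 and 8644 CPM in siNeg, 6578, 6345 and 6621 in siSlc39a2, 7889, 6644 and 6619 in siNeg PE and 4175, 4009 and 4031 in siSlc39a2 PE. All 3 siSlc39a2 PE libraries lay below every other library of the experiment. Under PE the knockdown lowered Atp2a2 to 0.577 times its siNeg PE level (log2 fold change -0.79 ± 0.08 SE, edgeR adjusted p = 4.2e-06). Without PE the knockdown libraries also lay below siNeg without overlap, at 0.818 times (log2 fold change -0.29 ± 0.08, edgeR adjusted p = 0.0088), but this direction turned to 0.036 to 0.23 when limma was run on quantile-normalised values. PE lowered Atp2a2 in siSlc39a2 cells (log2 fold change -0.68 ± 0.08, edgeR adjusted p = 2.0e-05). In siNeg cells the PE and control libraries overlapped and the log2 fold change was -0.18 ± 0.08 (edgeR adjusted p = 0.081), reaching -0.23 (adjusted p = 0.036) without siNeg replicate 1, -0.26 (adjusted p = 0.00960) without siNeg PE replicate 1 and -0.30 (adjusted p = 0.0088) with the length trend fitted out. The knockdown effect under PE differed from that without it by -0.50 ± 0.11 on the log2 scale (interaction term, edgeR adjusted p = 0.027). Atp2a2 was the only one of the 10 genes past the threshold in that test, where 3.61% of all genes passed. Without siNeg replicate 2, siSlc39a2 PE replicate 2, siSlc39a2 replicate 1 or siSlc39a2 replicate 2 the difference was -0.50, -0.49, -0.50 and -0.52, with edgeR adjusted p from 0.059 to 0.082, and in limma on log2(FPKM + 0.1) it was -0.56 (adjusted p = 0.073).

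The cardiomyocyte markers did not share one response beside this. Under PE the knockdown log2 fold change was -1.16 for Myh6, -0.54 for Mybpc3 and -0.42 for Tnni3, sarcomere genes that fell, while Actn2 stood at -0.07 and Tnnt2 at 0.15, neither past the threshold. The part of myocyte content or state in the Atp2a2 result was not tested.

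Pln encodes phospholamban, which holds SERCA2 back until it is phosphorylated. It was counted at 3304, 2526 and 2438 CPM in siNeg, 3386, 3427 and 3302 in siSlc39a2, 2133, 1704 and 1586 in siNeg PE and 1768, 1776 and 1749 in siSlc39a2 PE. Every PE library lay below every library without PE. PE lowered Pln to 0.656 times in siNeg cells (log2 fold change -0.61 ± 0.12, edgeR adjusted p = 0.0012) and to 0.523 times in siSlc39a2 cells (-0.93 ± 0.12, edgeR adjusted p = 3.5e-05). The PE effects did not differ past the threshold between siRNAs (difference -0.33, 95% interval -0.68 to 0.03, edgeR adjusted p = 0.37), except in limma on log2(FPKM + 1), at -0.42 (adjusted p = 0.046). For the knockdown without PE, siNeg replicate 1 lay level with the siSlc39a2 libraries, and the log2 fold change of 0.29 ± 0.12 missed the threshold (edgeR adjusted p = 0.056). Without that replicate it was 0.44 (edgeR adjusted p = 0.00378), and it also passed under all 9 other ways of fitting the same libraries, at 0.30 to 0.70. With PE the knockdown and control levels overlapped (log2 fold change -0.04, 95% interval -0.29 to 0.22, edgeR adjusted p = 0.81), though both limma fits on FPKM called a rise of 0.24 (adjusted p = 0.020 and 0.030).

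Sln encodes sarcolipin, the atrial counterpart of phospholamban. It was near the floor of these libraries, with 3 to 19 counts in each, and no comparison passed the threshold in the reported fit. The widest interval of the 4 comparisons, for PE in siNeg cells, ran from -1.34 to 0.81 on the log2 scale. Without PE the siSlc39a2 libraries lay above siNeg without overlap (log2 fold change 0.63, edgeR adjusted p = 0.27). PE in siSlc39a2 cells gave -0.69 (edgeR adjusted p = 0.20), or -1.25 (adjusted p = 0.044) without siSlc39a2 PE replicate 1. The atrial markers were also low, at 70.4 to 221 CPM summed over 4 genes, and Bmp10 was at 0 in some libraries.

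The transcripts of inhibitor and pump can be compared within each library as the ratio of their FPKM. RNA does not give the amounts or the phosphorylation of these proteins. Pln over Atp2a2 was 0.878, 0.616 and 0.549 in siNeg, 1.000, 1.05 and 0.968 in siSlc39a2, 0.526, 0.499 and 0.466 in siNeg PE and 0.823, 0.861 and 0.845 in siSlc39a2 PE. The knockdown libraries lay above their controls without overlap both without and with PE, and the PE libraries lay below those without PE under either siRNA. Group means were 0.681 ± 0.174, 1.01 ± 0.0399, 0.497 ± 0.0303 and 0.843 ± 0.0191 (SD, n = 3). Slc8a1 over Atp2a2 was 0.0285 ± 0.00251 in siNeg, 0.0397 ± 0.00265 in siSlc39a2, 0.0605 ± 0.00917 in siNeg PE and 0.157 ± 0.0285 in siSlc39a2 PE, the last being 5.52 times the siNeg mean. These ratios are given as descriptions, since an exact two-sided permutation test of 3 libraries against 3 cannot go below p = 0.1. Pln is shorter and Slc8a1 longer than Atp2a2, and the length trend was not fitted out of the ratios. Within siNeg, replicate 1, the library lowest for long transcripts, had the highest Pln ratio. Within siSlc39a2 PE, replicate 3, the library highest for them, had the highest Slc8a1 ratio.

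**Figure D4:**
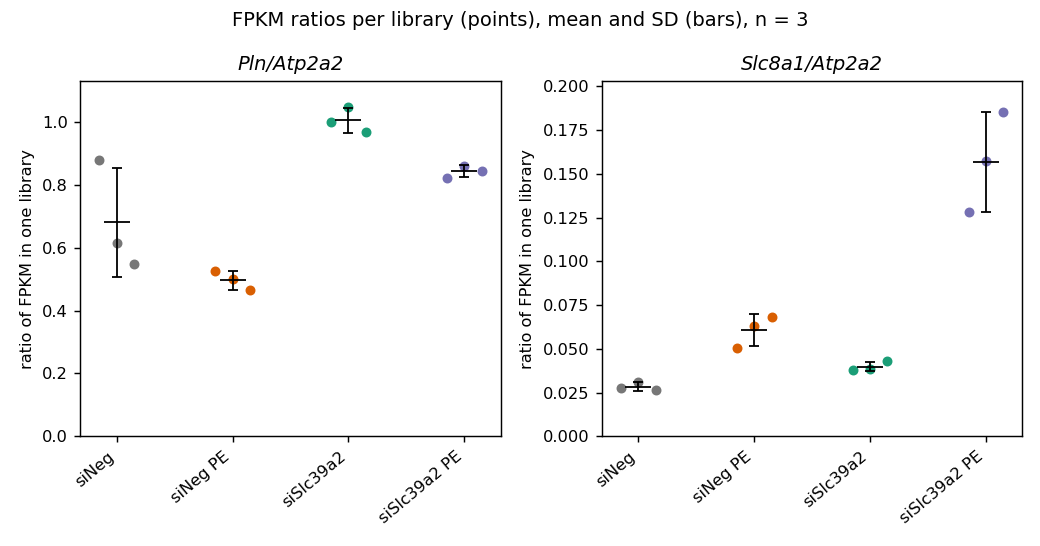
FPKM ratio within each library (y axis, from 0) of Pln to Atp2a2 and of Slc8a1 to Atp2a2, by group (x axis); points are libraries, bars the mean and SD of 3. The Pln ratio is highest in siSlc39a2 (1.01) and the Slc8a1 ratio in siSlc39a2 PE (0.157).

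Slc8a1 encodes the sodium-calcium exchanger NCX1, which carries calcium out across the plasma membrane. Levels were 305, 369.7 and 341 CPM in siNeg, 379, 364 and 426 in siSlc39a2, 592, 628 and 669 in siNeg PE and 804, 951 and 1123 in siSlc39a2 PE. PE libraries lay above those without PE under either siRNA, and siSlc39a2 PE lay above siNeg PE, without overlap. PE raised Slc8a1 1.86-fold in siNeg cells (log2 fold change 0.90 ± 0.11, edgeR adjusted p = 5.8e-05) and 2.46-fold in siSlc39a2 cells (1.30 ± 0.11, edgeR adjusted p = 1.7e-06). The latter was the only change among the 10 genes past 2-fold, which 10.5% of all genes passed in that comparison. The knockdown raised it 1.52-fold under PE (log2 fold change 0.61 ± 0.11, edgeR adjusted p = 5.3e-04). Without PE the siRNA groups overlapped, with a log2 fold change of 0.20 (95% interval -0.04 to 0.44, edgeR adjusted p = 0.15). It passed with the replicate block (0.20, adjusted p = 0.041) and with the 2 groups fitted alone (0.23, adjusted p = 0.049). The difference between the knockdown effects with and without PE was 0.41 ± 0.16 and missed the threshold (edgeR adjusted p = 0.22), but passed at 0.33 (adjusted p = 0.047) with the length trend fitted out and at 0.40 (adjusted p = 0.048) with the replicate number as a block. Slc8a1 is a long transcript and siSlc39a2 PE the group where long transcripts were highest. With the length trend fitted out the log2 fold changes were 0.71 and 1.04 for PE in siNeg and siSlc39a2 cells and 0.48 for the knockdown under PE, all still past the threshold.

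Cacna1c encodes the pore of the L-type channel, through which each beat's trigger calcium enters. It stood at 225, 255 and 252 CPM in siNeg, 209, 196 and 194 in siSlc39a2, 266, 252 and 249.9 in siNeg PE and 192, 209 and 216 in siSlc39a2 PE. All 6 knockdown libraries lay below all 6 control libraries, and libraries with and without PE overlapped under either siRNA. The knockdown lowered it to 0.819 times without PE (log2 fold change -0.29 ± 0.07, edgeR adjusted p = 0.0031) and to 0.802 times with PE (-0.32 ± 0.07, edgeR adjusted p = 0.0013). The first was -0.19 and missed the threshold in the limma fit on counts (adjusted p = 0.066). The log2 fold change with PE was 0.07 in siNeg (95% interval -0.07 to 0.21) and 0.04 in siSlc39a2 (-0.10 to 0.19), neither past the threshold. In limma on counts the first was 0.21 and passed (adjusted p = 0.048). With the length trend fitted out these turned to -0.17 and -0.29, the latter past it (edgeR adjusted p = 0.018). Some of its deposited counts were not whole numbers, so part of its reads may be shared with another gene.

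Ryr2 encodes the cardiac ryanodine receptor, the release channel of the sarcoplasmic reticulum. Its levels were 507, 826 and 808 CPM in siNeg, 550.4, 522 and 568 in siSlc39a2, 827, 937 and 1027 in siNeg PE and 595, 725 and 748 in siSlc39a2 PE. SiNeg replicate 1 stood apart from its group, below even the knockdown libraries, and it was the library lowest for long transcripts. Under PE the knockdown libraries lay below the controls without overlap (log2 fold change -0.43 ± 0.15, edgeR adjusted p = 0.029). That call was lost without siNeg PE replicate 2 (-0.43, adjusted p = 0.065), siNeg PE replicate 3 (-0.36, adjusted p = 0.097) or siSlc39a2 PE replicate 1 (-0.34, adjusted p = 0.094). It was also lost in 3 limma fits on quantile-normalised values, at -0.28 to -0.35. Without PE the log2 fold change was -0.39 ± 0.15 (edgeR adjusted p = 0.054), and -0.58 (adjusted p = 7.4e-04) without siNeg replicate 1. For PE, edgeR gave 0.38 ± 0.15 in siNeg (adjusted p = 0.055) and 0.33 ± 0.15 in siSlc39a2 (adjusted p = 0.078). The first became 0.50, 0.48 and 0.46 without siNeg replicate 2, siNeg replicate 3 or siNeg PE replicate 1 (edgeR adjusted p from 0.031 to 0.040), and the second 0.41 without siSlc39a2 PE replicate 1 (adjusted p = 0.044). The replicate block gave calls for PE in siNeg (0.40, adjusted p = 0.00804), for PE in siSlc39a2 (0.32, adjusted p = 0.021) and for the knockdown without PE (-0.36, adjusted p = 0.015). DESeq2 called PE in siNeg (adjusted p = 0.030) and the knockdown without PE (adjusted p = 0.040). PE in siNeg was also called with no filter (adjusted p = 0.037). Both limma fits on FPKM called PE in siNeg and in siSlc39a2 (adjusted p from 0.018 to 0.044), and the 2 groups alone called PE in siSlc39a2 (adjusted p = 0.013). With the length trend fitted out, the PE values were 0.17 and 0.01, while the knockdown values were -0.41 and -0.56 and both passed.

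Casq2 encodes calsequestrin, the calcium buffer inside the reticulum. It was measured at 1369, 1231 and 1291 CPM in siNeg, 1429, 1491 and 1492 in siSlc39a2, 2049, 1757 and 1800.4 in siNeg PE and 1812, 1856 and 1888 in siSlc39a2 PE. All 6 PE libraries lay above all 6 libraries without PE. PE raised it 1.44-fold in siNeg cells (log2 fold change 0.53 ± 0.07, edgeR adjusted p = 6.6e-05) and 1.26-fold in siSlc39a2 cells (0.33 ± 0.07, edgeR adjusted p = 0.0010). The knockdown raised Casq2 1.13-fold without PE (0.18 ± 0.07, edgeR adjusted p = 0.039). This small call was lost without siNeg replicate 2 (0.14), siNeg replicate 3 (0.18), siSlc39a2 replicate 1 (0.20) or siSlc39a2 replicate 2 (0.17), at edgeR adjusted p from 0.054 to 0.145. Under PE the knockdown log2 fold change was -0.01 (95% interval -0.16 to 0.13, edgeR adjusted p = 0.88). The interaction, -0.19 with an edgeR adjusted p of 0.34, passed in limma on counts (-0.42, adjusted p = 0.046).

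Srl encodes sarcalumenin, another calcium-binding protein of the reticulum's lumen. It was at 1641, 1587 and 1605 CPM in siNeg, 1234, 1189 and 1142 in siSlc39a2, 1781, 1601 and 1590.3 in siNeg PE and 1446, 1413 and 1387 in siSlc39a2 PE. All 6 knockdown libraries lay below all 6 controls, with siSlc39a2 lowest. The knockdown lowered Srl to 0.738 times without PE (log2 fold change -0.44 ± 0.06, edgeR adjusted p = 5.7e-05) and to 0.854 times with PE (-0.23 ± 0.06, edgeR adjusted p = 0.0054). In limma fits on quantile-normalised values the second was -0.06 to -0.11 and did not pass, and the first did not pass in the fit on counts (-0.08). PE raised Srl 1.19-fold in siSlc39a2 cells (log2 fold change 0.25 ± 0.06, edgeR adjusted p = 0.0028), a call lost with the length trend fitted out (0.09, adjusted p = 0.31). In siNeg cells the PE value was 0.04 (95% interval -0.09 to 0.17, edgeR adjusted p = 0.58), but 0.18 and past the threshold in both limma fits on FPKM (adjusted p = 0.026 and 0.039). In the reported fit Casq2 and Srl thus went in opposite directions with the knockdown without PE, Casq2 upward and Srl downward. The Casq2 rise was small and was lost in several fits with a library left out. Hrc and Casq1 also encode calcium-binding proteins of the reticulum, and both fell in that comparison. Their log2 fold changes were -0.73 (edgeR adjusted p = 4.6e-05) and -0.29 (edgeR adjusted p = 0.0097).

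Itpr2 encodes an inositol trisphosphate receptor, a release channel found in myocytes near the nucleus. It ranged from 4.78 to 9.28 CPM, from 121 to 253 counts a library, and no comparison passed the threshold in the reported fit. The largest log2 fold change was 0.42 for PE in siSlc39a2 cells, where groups did not overlap (95% interval 0.02 to 0.81, edgeR adjusted p = 0.064), and it passed with the replicate block (0.41, adjusted p = 0.022) and with the 2 groups alone (adjusted p = 0.015). PE in siNeg cells gave 0.32 (edgeR adjusted p = 0.16), or 0.50 (adjusted p = 0.021) without siNeg PE replicate 1, the lowest of its group. Camk2d encodes the main cardiac CaM kinase II and ranged from 108 to 169.8 CPM. PE libraries of siNeg cells, at 139.9 to 144 CPM, lay above all siNeg libraries, at 108 to 129 CPM, with a log2 fold change of 0.24 ± 0.11 (edgeR adjusted p = 0.094). This passed with the replicate block (0.25, adjusted p = 0.020), with the 2 groups alone (0.26, adjusted p = 0.022) and in limma on log2(FPKM + 1) (0.34, adjusted p = 0.044). The other Camk2d comparisons overlapped. PE in siSlc39a2 cells gave 0.18 (edgeR adjusted p = 0.18), or 0.27 (adjusted p = 0.048) without siSlc39a2 replicate 3.

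Around the 10 genes, 69 other genes of calcium handling were listed by role, of which 67 were in the table and 61 passed the filter. The knockdown without PE raised 10 and lowered 26 of the 61, beside 22.8% and 26.4% of all genes, with a median log2 fold change of -0.17. Under PE it raised 14 and lowered 24, beside 29.2% and 28.1% of all genes, with a median of -0.02. PE raised 22 and lowered 14 in siNeg cells, beside 24% and 25.7% (median 0.16), and raised 29 and lowered 16 in siSlc39a2 cells, beside 30.7% and 29.3% (median 0.24). In the reticulum's junction, where ryanodine receptors face the plasma membrane, the knockdown without PE lowered 9 of 16 genes and raised 1. This stood beside the same 26.4% and 22.8% of all genes. Under PE it lowered 6 of the 16 and raised 3, beside 28.1% and 29.2%, with a median log2 fold change of 0.01.

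**Figure D5:**
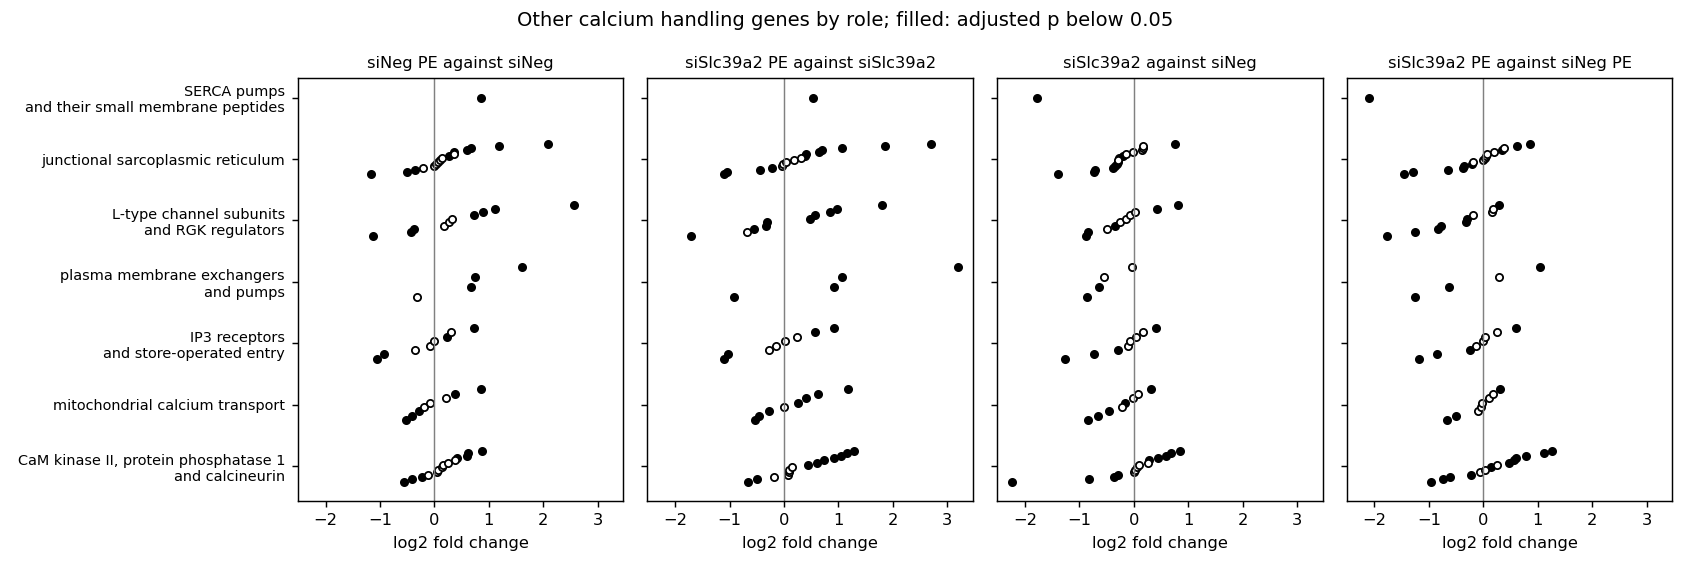
Log2 fold change (x axis) of 61 other calcium handling genes, 1 point a gene, by role (rows) in 4 comparisons; filled points have an adjusted p below 0.05. With the knockdown without PE 26 fall and 10 rise (26.4% and 22.8% of all genes), and with PE 14 fall and 22 rise in siNeg (25.7% and 24%) and 16 fall and 29 rise in siSlc39a2 (29.3% and 30.7%).

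Of these, Atp2a1, the SERCA pump of fast skeletal muscle, fell with the knockdown both without and with PE: its mean was 3.55 CPM in siNeg and 1.03 in siSlc39a2 (log2 fold change -1.78), and 6.44 in siNeg PE and 1.49 in siSlc39a2 PE (-2.11). Hrc, a histidine-rich calcium-binding protein of the reticulum, went from 155.6 ± 17.3 CPM in siNeg PE to 63.7 ± 6.74 in siSlc39a2 PE (SD, n = 3, log2 fold change -1.29). Camk2b, another CaM kinase II gene, went from 7.36 to 1.55 CPM with the knockdown without PE (-2.24), and Itpr3 and the channel subunit gene Cacnb3 fell by 1.26 and 0.87 on the log2 scale. Atp2b2, a plasma membrane pump, and Cacna1s, the skeletal muscle L-type pore, both fell by 1.25 on the log2 scale with the knockdown under PE.

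Other genes of the list rose with the knockdown. Rcan1, an inhibitor of calcineurin that is itself induced by calcineurin signalling, was at 105.6 ± 2.32 CPM in siNeg, 169 ± 7.59 in siSlc39a2, 159.8 ± 7.46 in siNeg PE and 348 ± 22.9 in siSlc39a2 PE. The knockdown raised it by 0.68 on the log2 scale without PE, and by 1.12 with it. Ppp1cb, a catalytic subunit of protein phosphatase 1, rose by 0.85 and 1.27, and Tmem38b, a potassium channel of the reticulum, by 0.76 and 0.85. Cacna2d2, an L-type channel subunit, rose by 0.81 without PE, and the calcineurin subunit Ppp3ca by 0.78 with PE.

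Other genes of the list moved with PE. Casq1, the skeletal calsequestrin, went from 40.2 ± 0.852 to 170 ± 19.6 CPM in siNeg cells (log2 fold change 2.08) and from 32.8 ± 1.67 to 215 ± 7.05 CPM in siSlc39a2 cells (2.71). Casq1 counts were not all whole, so its reads may be shared with an overlapping gene. Cacna1s rose by 2.57 and 1.81, Ryr3 by 1.18 and 1.85, Cacnb2 by 1.12 in siNeg cells, and Ppp1cb by 1.29 in siSlc39a2 cells. Among the genes that fell, the channel inhibitor Rrad changed by -1.13 and -1.70, S100a1, which binds SERCA2 and the ryanodine receptor, by -1.16 and -1.10, and Orai3, a store-operated channel also with counts that were not whole, by -1.05 and -1.10. Stim1, the calcium sensor of store-operated entry, changed by -0.92 in siNeg cells and Hrc by -1.05 in siSlc39a2 cells. Every log2 fold change named in these last paragraphs had an edgeR adjusted p of 0.00134 or lower.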

How the data were processed

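RNA of 12 NRVM libraries, stated to be independent replicates and grouped by their labels, was sequenced by the study. The submitters' processing notes name HISAT, Bowtie2 and Rnor_6.0; the program that counted reads is not given in the sources used here. The authors deposited expected counts (estimated counts, 78.7% of them whole) and FPKM per gene. Here the expected counts were rounded and scaled by TMM, genes below edgeR's filter (minimum count 10) were left out (4516, leaving 13967), and all 4 groups were fitted together with edgeR 4.0.16 (quasi-likelihood, 8 residual degrees of freedom) in R 4.3.3. CPM are on these TMM-scaled library sizes. FPKM served for levels between genes and ratios. Alternatives used DESeq2 1.42.0, limma 3.58.1 on quantile-normalised log2 values, other scaling and filters, a replicate block and each library left out. An offset for transcript length, and the repeats for named genes that are not among the 10, were added after the data were seen.

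The genes and lists were chosen with earlier results of these data known. Other calcium genes were named as the 4 highest and 4 lowest in a comparison with an adjusted p below 0.05, a mean log2 CPM above 1 and groups that do not overlap. The edgeR test was tried on simulated data for siSlc39a2 against siNeg over 13825 genes. It found 97 of 100 genes changed 2-fold and 64 of 100 changed 1.5-fold, with 8 false calls. Only these genes were changed there, and genes of low counts were not among them. In the data 6873 genes were called in this comparison, so the shares found need not hold. Promoters are RefSeq's (GRCr8), a later assembly than that of the counts. The pattern comparison is not reported here for all of the genes.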

Additional observations from a re-analysis of the deposited data

Results flagged for a closer look

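The knockdown effect on Atp2a2 differed between cells with and without PE. In log2 units it was -0.79 with PE and -0.29 without, a difference of -0.50 ± 0.11 (SE) by the interaction term of the edgeR fit (adjusted p = 0.027). The adjusted p of this difference ran from 3.6e-04 to 0.082 over the alternatives, with the difference between -0.73 and -0.41 in each of them. All 3 siSlc39a2 PE libraries lay below every other library for this gene.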

How the results depend on the processing

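Over 50 results (10 genes, 4 comparisons and the interaction) and 798 alternative values, 691 kept their direction and their side of the threshold, 21 lost it, 47 gained it and 39 turned sign, 0 of them called in both fits. None of the scalings moved the median of all genes by over 0.1 on the log2 scale.

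For the knockdown without PE, genes higher numbered 1, but 2 with DESeq2, RLE size factors, no filter, each limma fit and the length offset, and 3 with the replicate block and with the 2 groups fitted alone (0 to 2 with a library left out). Genes lower numbered 3, but 0 with limma on counts (3 to 4 with a library left out). DESeq2, the replicate block and the length offset added Ryr2 to those lower, and both limma fits on FPKM dropped Atp2a2. For PE in siNeg, genes higher numbered 2, but 4 with the replicate block and limma on log2(FPKM + 0.1) and 5 on log2(FPKM + 1) (2 to 4 with a library left out), and genes lower numbered 1, but 2 with the length offset (1 to 2). For the knockdown with PE, limma on FPKM gave 2 higher in place of 1, and each limma fit 2 lower in place of 4 (leaving out a library, 1 to 1 and 3 to 4). For PE in siSlc39a2, genes higher numbered 3, but 5 with the replicate block and with 2 groups alone (3 to 4), and lower 2 to 3. Genes with an interaction numbered 1, but 2 with the replicate block, limma on log2(FPKM + 1), limma on counts and the length offset, and 0 with limma on log2(FPKM + 0.1) (0 to 1). Except where named, counts that moved by a smaller fold in these fits are left out here. The cause of the shifts was not tested.

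Under the limma fits (FPKM with pseudocounts 1 and 0.1, then counts), these log2 fold changes turned: Atp2a2 with knockdown without PE (0.0357, 0.0357, 0.23) and with PE in siNeg (0.0377, 0.0378, 0.0424), and, with knockdown under PE, Pln (0.24, 0.24, 0.0678) and Casq2 (0.19, 0.19, 0.12), and Camk2d on FPKM alone (-0.0400, -0.0411). Pln passed in both FPKM fits (limma adjusted p = 0.020 and 0.030). With the length offset, Sln (0.0839), Cacna1c (-0.17) and Srl (-0.0694) with PE in siNeg, Camk2d with knockdown under PE (-0.0288) and Cacna1c with PE in siSlc39a2 (-0.29) turned. With a library left out, these crossed 0: PE in siNeg, Sln (-0.76 to 0.13) and Srl (-0.0128 to 0.0723), knockdown under PE, Pln (-0.12 to 0.10), Sln (-0.33 to 0.70), Casq2 (-0.0569 to 0.0579), Itpr2 (-0.21 to 0.16) and Camk2d (-0.0785 to 0.13), PE in siSlc39a2, Cacna1c (-0.0102 to 0.0758), and the interaction, Ryr2 (-0.17 to 0.15), Sln (-1.003 to 0.0686), Cacna1c (-0.0993 to 0.0251), Itpr2 (-0.0853 to 0.28) and Camk2d (-0.18 to 0.0165). Of all these results, Atp2a2 with knockdown without PE was past the threshold in the reported fit (-0.29, edgeR adjusted p = 0.0088) and the others were not.

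Replicate numbers did not pair the libraries alike in the 4 comparisons. Correlations of same-numbered deviations ran from -0.09 to 0.32, not all over 0.1. Their mean was 0.19 for PE in siNeg and 0.15 for the knockdown with PE. In each of these, 4 of 6 libraries were closest to their own number. It was 0.006 for the knockdown without PE and 0.05 for PE in siSlc39a2, with 2 of 6 libraries closest in each. Whether same-numbered libraries share a preparation is not given in the labels. With the replicate block, genes called went from 6873 to 7952 for the knockdown without PE, from 6935 to 8030 and from 8378 to 9081 for PE in siNeg and siSlc39a2, from 8001 to 8869 for the knockdown with PE, and from 504 to 1053 for the interaction, where Slc8a1 then passed (0.40, edgeR adjusted p = 0.048). Named genes that are not among the 10 kept direction and call in 536 of 540 repeats, the exceptions being Slc39a2 with PE.

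With 3 libraries a group, small changes can be missed. In the simulated data 64 of 100 genes changed 1.5-fold were found, a share that need not hold here. Sln and Itpr2 rest on few counts.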

Other observations

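Of the 61 other calcium handling genes tested, 8 had a knockdown effect that differed between cells with and without PE (edgeR interaction term, adjusted p below 0.05), against 3.61% of all genes. They were picked after their values were seen. Fkbp1a, which encodes a ryanodine receptor-binding protein, was at 494 ± 27.6 CPM in siNeg, 381 ± 12.8 in siSlc39a2, 596 ± 13.2 in siNeg PE and 595 ± 26.7 in siSlc39a2 PE (SD, n = 3), a difference of 0.37 on the log2 scale. Hrc had a difference of -0.55, Cacna2d2 of -0.52, Rcan1 of 0.44, Casq1 of 0.63, Saraf, a regulator of store-operated entry, of 0.33, and Mcub, a subunit of the mitochondrial uniporter, of 0.82. Mcub was low, with group means from 3.40 to 6.09 CPM, and like Casq1 had counts that were not all whole. Camk2b had the largest, 1.27 (edgeR adjusted p = 0.0047), at a level of 1.55 to 7.36 CPM.

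The low genes Fkbp1b, Slc8a2 and Cacna1d, outside the naming rule, also moved, again picked after their values were seen. Fkbp1b, the other ryanodine receptor-binding protein of this family, went from 2.91 ± 0.268 to 1.10 ± 0.0859 CPM with the knockdown without PE and from 2.97 ± 0.301 to 1.08 ± 0.167 CPM with PE. Slc8a2, another sodium-calcium exchanger, had a mean of 0.135 CPM in siSlc39a2 and 1.25 CPM in siSlc39a2 PE, with counts that were not all whole. Cacna1d, another L-type pore, had means of 1.00 CPM in siNeg PE and 0.291 CPM in siSlc39a2 PE.

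The genes whose pattern over the 12 libraries lay nearest, by root mean square difference of centred log2 CPM, were Fryl for Ryr2 (0.0909), Relb for Pln (0.0864), Tbx3 for Sln (0.352), Txndc12 for Casq2 (0.0688), Rtn4 for Slc8a1 (0.0504), Sh2b3 for Cacna1c (0.0623), Fam129a for Itpr2 (0.111), Ppp4r1 for Srl (0.0394) and Sspn for Camk2d (0.0641). Sln rests on few counts, and its nearest gene was the farthest of those listed. Within the 10, Cacna1c and Srl lay closest to each other (0.106), and Camk2d and Casq2 followed (0.181).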
